A study of Mus musculus with 13 samples.

Results

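Adipocyte genes, 10 genes that mark the fat cell, were followed across the 13 RNA-Seq libraries of mdm mouse muscle, and all 10 were found among the 17924 genes in the deposited tables. They are Pparg (the transcription factor that directs fat cell formation), Adipoq, Lep, Retn and Cfd (secreted by fat cells), Plin1, Cidec and Fabp4 (lipid droplet coat, droplet fusion and fatty acid binding) and Pck1 and Cyp2e1 (enzymes). The genes were selected on their measured levels in these same libraries, so their differences between muscles are given as a description, with no p-value for any of them, and the counts of calls printed for them are no evidence of a difference. The study sequenced total RNA of 3 whole muscles, the extensor digitorum longus (EDL) of the lower leg, the psoas of the hip and the soleus of the calf, with 5 libraries of mdm EDL, 5 of mdm psoas and 3 of mdm soleus. Every animal used here has the mdm genotype, which carries the mdm deletion in titin (Ttn) and came from a B6C3Fe a/a-Ttn mdm/J colony, with no other treatment named, and wild-type libraries are not analysed here. The EDL mice were 38 days old in 4 libraries and 42 in replicate 3. The psoas mice were 29 days old in replicate 1, 42 in replicate 3 and 38 in the other 3 libraries, and the soleus mice were 33, 36 and 38 days old. Sex is labelled for 6 of the libraries, 4 male and 2 female. EDL and psoas replicates 2 to 5 have matching ages and may share animals, whereas the replicates numbered 1 differ in age. A further label, with the codes T1, T3, T4, T5 and T6, is not explained. T6 marks EDL replicates 4 and 5, psoas replicates 4 and 5 and soleus replicate 3. Sex follows this label, since the 4 male libraries are those coded T4 and the 2 female ones those coded T5. No sex is labelled under T1, T3 or T6. The libraries were made from mixed tissue, so fewer fat cells and less RNA per fat cell cannot be told apart.

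White fat cells store triglyceride in a large lipid droplet coated by perilipin 1 and release it as fatty acids when lipases are activated. They also act as endocrine cells, secreting adiponectin, leptin, resistin (in mice) and the complement protease factor D, also called adipsin. Within skeletal muscle, fat cells lie between the fibres and around the fascicles, and can arise there from fibro-adipogenic progenitors under the control of PPARγ and C/EBP transcription factors.

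Total counts per library ran from 9114176 in soleus replicate 3 to 48835209 in EDL replicate 1, and the values below are the deposited counts divided by the authors' size factor of each library (normalized counts). A pair of libraries stood apart in genes of other tissues. Psoas replicate 5 had 4911 normalized counts of Ucp1, the uncoupling protein of brown fat, where the other 12 libraries had at most 79.5. Soleus replicate 1 had 1205 normalized counts of the liver transcript Alb, where the others had at most 303. All 9 further genes of a fat cell identity list also passed the filter on low counts. A list of 8 fibre genes summed to between 857259 and 2296801 normalized counts per library.

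The stretches of promoter that precede several of these genes are shown because Adipoq, Cfd and Retn were among the genes that moved most closely together and Lep moved apart, while Plin1 and Pparg hold the motif searched for. RefSeq promoter entries (GRCm38.p6) existed for 9 of the 10 genes, 12 entries in all, and Fabp4 had none. The motif TTGCNNAA, of the kind bound by C/EBP proteins, was searched on both strands in the 250 bases before each start site and was present in 9.56% of all 32851 promoters in the table. The motif AGGTCA, a half-site of nuclear receptors such as PPARγ, was present in 14.0% of them. Each line gives 100 bases on the gene's strand, ending directly before the outermost exon annotated there by GENCODE, with capitals marking TTGCNNAA.
Adipoq, chr16:23146436-23146535, plus strand: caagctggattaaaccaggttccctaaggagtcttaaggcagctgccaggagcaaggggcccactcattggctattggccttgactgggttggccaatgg
Cfd, chr10:79890753-79890852, plus strand: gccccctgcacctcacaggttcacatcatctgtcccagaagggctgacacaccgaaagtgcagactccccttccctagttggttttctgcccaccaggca
Retn, chr8:3655670-3655769, plus strand: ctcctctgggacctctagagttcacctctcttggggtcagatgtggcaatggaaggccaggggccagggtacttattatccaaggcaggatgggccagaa
Lep, chr6:29060120-29060219, plus strand: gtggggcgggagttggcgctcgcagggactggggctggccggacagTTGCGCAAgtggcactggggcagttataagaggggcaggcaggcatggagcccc
Plin1, chr7:79732904-79733003, minus strand: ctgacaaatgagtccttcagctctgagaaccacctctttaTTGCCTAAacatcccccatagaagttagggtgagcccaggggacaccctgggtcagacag
Pparg, chr6:115421966-115422065, plus strand: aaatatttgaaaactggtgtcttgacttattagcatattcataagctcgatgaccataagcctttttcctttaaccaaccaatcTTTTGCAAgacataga

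In these letters, Lep held the motif from position -55 to -48 before its start site and Pparg, in the entry of its internal start, held it on the reverse strand from -16 to -9. Plin1 held it from -187 to -180 and again from -58 to -51, and Cidec held it from -198 to -191 in 1 of its 2 entries. Pparg had a second match in the same entry from -215 to -208. AGGTCA was found in the other 2 entries of Pparg, from -28 to -23 and from -9 to -4, and in no other of the 12 entries. The windows of Adipoq, Cfd, Retn, Pck1 and Cyp2e1 held neither string of letters.

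Levels of different genes were compared only per length, as FPKM computed from the counts, the effective library size and the longest protein-coding transcript of GENCODE release M21. In EDL, Cfd (407 ± 284 FPKM, SD, n = 5) and Fabp4 (398 ± 126) were the most abundant of the 10 and did not differ beyond their spread. Adipoq (67.0 ± 42.5) and Cyp2e1 (59.7 ± 37.6) followed, also within their spread, then Retn (23.6 ± 13.2), Pck1 (17.3 ± 14.4), Plin1 (11 ± 9.09) and Cidec (10.1 ± 5.76), which overlapped among each other. Pparg stood at 5.31 ± 1.97 FPKM and Lep at 0.886 ± 1.15. Soleus showed a similar order on a higher scale, with Cfd at 2495 ± 733 FPKM (n = 3), Fabp4 at 1299.8 ± 64.1, Cyp2e1 at 332 ± 183 and Adipoq at 330 ± 110, and Lep again lowest at 2.59 ± 3.86. In psoas, Cfd (861 ± 234 FPKM, n = 5) and Fabp4 (530 ± 307) led as well, with Cyp2e1 at 215 ± 161 and Adipoq at 113 ± 31.3. The rank of Fabp4 in each muscle depends on the length used, 896 bases here. All its annotated exons together cover 4489 bases, and with that length its FPKM would be lower and its place beside Cfd would not hold.

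Pparg, on chromosome 6 (115360951 to 115490399, plus strand, GRCm38), had normalized counts of 160, 110, 191, 310 and 195 in EDL replicates 1 to 5. The psoas replicates had 402, 380, 274, 269 and 466, and those of soleus 764, 311 and 1045. The ranges of EDL and psoas overlapped, while the lowest soleus library, replicate 2, was barely above the highest EDL library (311 against 310.4). Relative to EDL, the edgeR estimate of the log2 fold change was 0.90 ± 0.31 (SE) in psoas and 1.88 ± 0.35 in soleus. The gene of an antisense RNA, Gm44079, overlaps the span of Pparg but shares no exon base with it.

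Adipoq, on chromosome 16 (23146536 to 23158028, plus strand), codes for adiponectin, the most abundant hormone of fat cells. Its normalized counts were 689, 1185, 1095, 3154 and 1286 in EDL, 2260.2, 3067, 2356, 1537 and 3282 in psoas and 8221, 4461 and 9076 in soleus. Every soleus library was above every library of the other muscles, and EDL replicate 4 reached the psoas level. The log2 fold change was 0.76 ± 0.36 in psoas against EDL, 2.30 ± 0.41 in soleus against EDL and 1.54 ± 0.40 in soleus against psoas.

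Retn, on chromosome 8 (3655770 to 3660110, plus strand), codes for resistin. It had 239, 281, 420.1, 904 and 456 normalized counts in EDL, 607, 783, 692, 439 and 1178 in psoas and 2456, 1413 and 2780.2 in soleus. Soleus was again above all libraries of the other muscles, and the EDL and psoas ranges overlapped. The fold change on the log2 scale was 0.69 ± 0.35 in psoas and 2.28 ± 0.40 in soleus relative to EDL, and 1.59 ± 0.39 between soleus and psoas.

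Cfd, on chromosome 10 (79890853 to 79892655, plus strand), codes for complement factor D. It was the gene with the largest difference between soleus and EDL among the 10, with 2611, 6294, 5269.8, 14168 and 3706 normalized counts in EDL, 13700.4, 17798, 13868, 7617 and 14770.1 in psoas and 42065, 26203 and 49058 in soleus. The soleus libraries did not overlap with the others, whereas EDL replicate 4 fell among the psoas libraries. The log2 fold change was 1.08 ± 0.40 in psoas against EDL, 2.62 ± 0.45 in soleus against EDL and 1.53 ± 0.44 in soleus against psoas.

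Lep, on chromosome 6 (29060220 to 29073877, plus strand), codes for leptin, whose release rises with the fat stored. Its normalized counts were 5.96, 0.638, 1.99, 115 and 124 in EDL, 1.86, 0.534, 3.66, 69.5 and 113 in psoas and 39.7, 2.14 and 390.3 in soleus. These values were split by library within each muscle, and the ranges of the 3 muscles overlapped. The log2 fold changes were accordingly imprecise, at -0.39 ± 1.41 in psoas against EDL, 1.53 ± 1.56 in soleus against EDL and 1.93 ± 1.56 in soleus against psoas. The low values rest on 1 to 14 raw counts in 7 libraries.

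Plin1, on chromosome 7 (79720218 to 79732903, minus strand), codes for perilipin 1, which coats the droplet and gates lipolysis. EDL libraries had 159, 351, 247, 1262 and 637 normalized counts, psoas 409, 646, 917, 838 and 2304, and soleus 3286, 1717 and 3110.3. Soleus lay above EDL in all libraries, while psoas replicate 5, the library with Ucp1, exceeded soleus replicate 2. The log2 fold change was 0.95 ± 0.53 in psoas against EDL, 2.36 ± 0.60 in soleus against EDL and 1.41 ± 0.59 in soleus against psoas.

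Cidec, on chromosome 6 (113424634 to 113435760, minus strand), codes for a protein that moves lipid between touching droplets so that they grow. Its normalized counts were 138, 559.5, 305, 284 and 181 in EDL, 737, 1465, 614, 234 and 693 in psoas and 1370.1, 1823 and 894 in soleus. Psoas replicate 2 lay within the soleus range, and psoas replicate 4 within that of EDL. The log2 fold changes were 1.34 ± 0.44 for psoas and 2.21 ± 0.49 for soleus relative to EDL, and 0.87 ± 0.49 between soleus and psoas.

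Fabp4, on chromosome 3 (10204088 to 10208576, minus strand), codes for a fatty acid carrier of the cytosol that is also made by capillary endothelium and macrophages. It had 5542, 7061, 4376, 9011 and 4431 normalized counts in EDL, 6337, 8732, 5470.02, 4025 and 15961 in psoas and 18812, 19775 and 20722 in soleus. The soleus libraries lay close together and above all others, and EDL and psoas overlapped over most of their ranges. Of the 10 genes it had the smallest range over the 13 libraries, with a highest value 5.15-fold the lowest. The log2 fold change was 0.41 ± 0.33 in psoas against EDL, 1.71 ± 0.38 in soleus against EDL and 1.30 ± 0.38 in soleus against psoas. The psoas difference came to 0.01 without psoas replicate 5.

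Pck1, on chromosome 2 (173153048 to 173159273, plus strand), codes for phosphoenolpyruvate carboxykinase, which fat cells use to make glycerol 3-phosphate and which liver and kidney use for gluconeogenesis. Its normalized counts were 128, 1570.1, 1342, 540.2 and 307 in EDL, 1964, 3962, 8122, 901 and 5026 in psoas and 2796, 6715 and 2417 in soleus. Psoas and soleus had about the same mean, with a log2 fold change of 0.00 ± 0.74. Against EDL it was 2.35 ± 0.68 in psoas and 2.35 ± 0.73 in soleus, with soleus above EDL in every library and psoas replicate 4 within the EDL range.

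Cyp2e1, on chromosome 7 (140763739 to 140774987, plus strand), codes for a cytochrome P450 that is abundant in hepatocytes and also made in fat. It had 1347, 3263, 2753, 1511 and 408 normalized counts in EDL, 9057, 12319, 9431, 1272 and 1522 in psoas and 12812, 14289 and 3812 in soleus. The psoas values fell into a high set of replicates 1 to 3 and a low set of replicates 4 and 5, and the low set lay within the EDL range. The log2 fold change was 1.85 ± 0.67 in psoas against EDL, 2.47 ± 0.74 in soleus against EDL and 0.63 ± 0.73 in soleus against psoas. Soleus replicate 2 had the highest Cyp2e1 of all with 61.4 normalized counts of Alb, and soleus replicate 1 had 12812 of Cyp2e1 with 1205 of Alb. In psoas, replicate 2 had both the highest Cyp2e1 and the highest Alb (303). Tat, another liver transcript, had 49.8, 37.4, 11.9, 3.47 and 1.66 normalized counts in psoas replicates 1 to 5. In soleus replicates 1 to 3 it had 33.1, 2.14 and 0. The part of liver RNA in the values of Cyp2e1 and Pck1 was not tested.

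**Figure D1:**
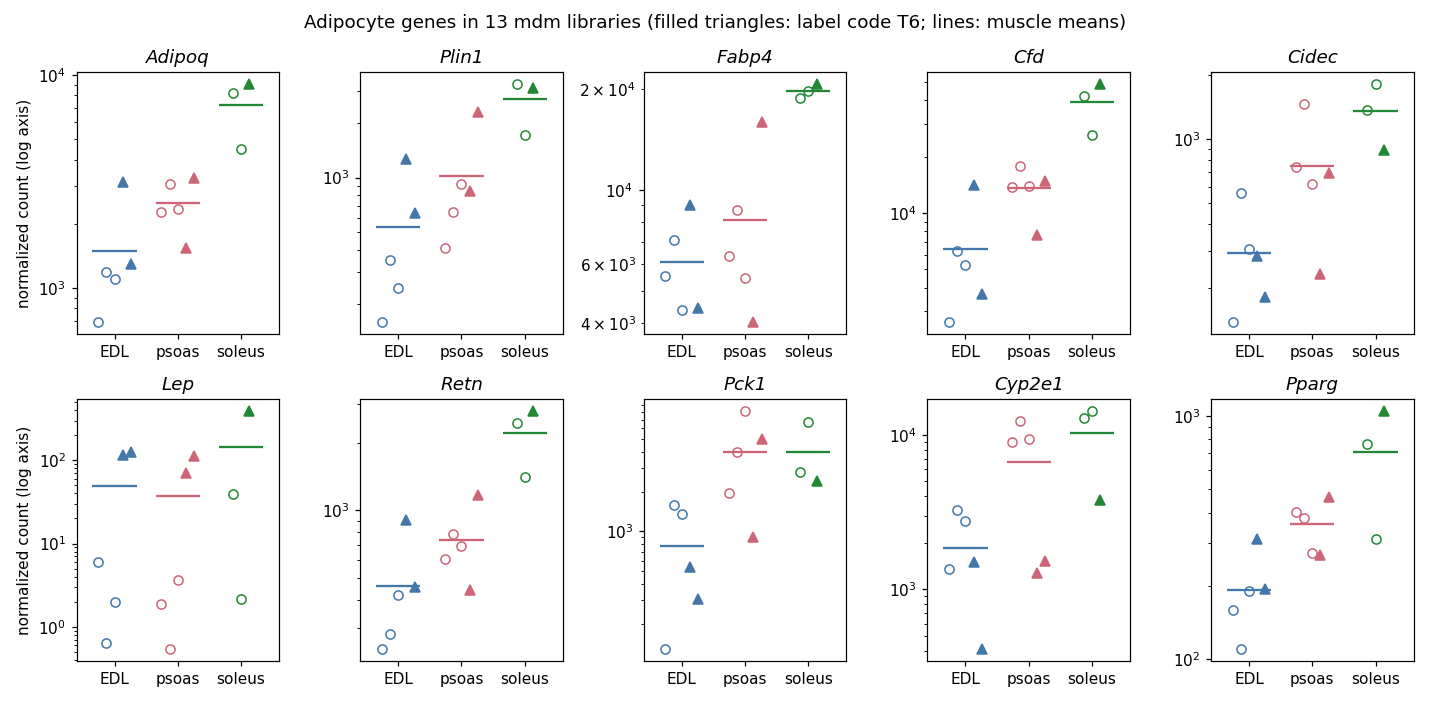
Normalized counts (log axis) of the 10 adipocyte genes in each mdm library by muscle, with filled triangles for libraries coded T6 and horizontal lines for the muscle means. Soleus lies above EDL in all libraries for every gene but Lep, whose high values are those of the T6 libraries.

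The comparison of muscles asked where among the mdm muscles the fat cell genes were highest. Of the 10 genes, 9 had no overlap between soleus and EDL and were higher in soleus, all but Lep, where 5.33% of the 17069 genes tested had no overlap in that direction. Between soleus and psoas the genes without overlap were Adipoq, Fabp4, Cfd and Retn, 4 of 10, against 4.97% of all genes. Between psoas and EDL none of the 10 was free of overlap, while 6.48% of all genes were higher in psoas with no overlap. The median log2 fold change of the 10 genes was 2.29 in soleus against EDL, 1.35 in soleus against psoas and 0.93 in psoas against EDL, where the medians over all genes were -0.03, -0.03 and 0.02.

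With edgeR's quasi-likelihood test and the study's limits (a p below 0.01 after Benjamini-Hochberg adjustment and a log2 fold change beyond 1 in either direction), 4 of the 10 were called higher in soleus than in EDL, namely Adipoq, Cfd, Retn and Pparg. Of all 17069 genes tested, 0.533% were called higher and 0.445% lower in that comparison, and DESeq2 called 633 of them. In psoas against EDL, 0 of the 10 were called, and 2.43% of all genes were called higher and 2.5% lower. There 5 of the 10 had an unadjusted p under 0.05, as had 5679 of the 17069 genes tested. DESeq2 called 1 of the 10 (Pck1) and 1586 of all genes. In soleus against psoas, 0 were called, and 0.0703% of all genes were called higher and 0.00586% lower. There 6 of the 10 had an unadjusted p under 0.05, as had 2163 of the 17069 genes tested. DESeq2 called 0 of the 10 and 171 of all genes. These calls describe the genes' place in the table and nothing more, since the genes were chosen from such differences. The 4 calls in soleus were not stable, with 7 called by DESeq2, 0 with the label code as a term or with soleus and EDL fitted alone, and 0 to 4 called when single libraries were left out, 0 without EDL replicate 1, 2, 3 or 5 or without soleus replicate 1 or 3, 1 without soleus replicate 2 or psoas replicate 3. The estimates themselves moved less, the median of the 10 staying between 2.1 and 2.32 when single libraries were left out.

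**Figure D2:**
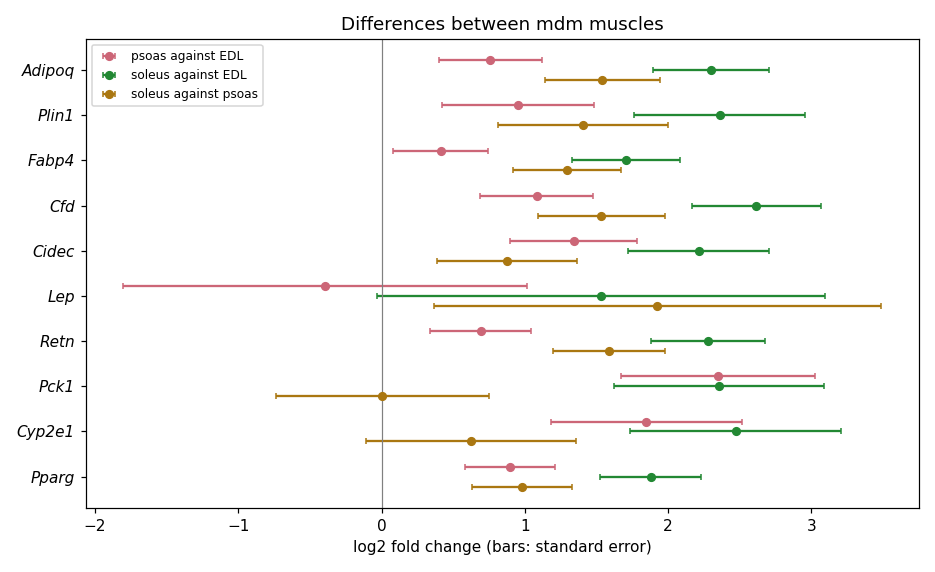
Log2 fold changes between mdm muscles for the 10 adipocyte genes, from a single edgeR fit over 13 libraries, with bars of 1 standard error. The soleus estimates relative to EDL lie between 1.53 and 2.62, those of psoas between -0.39 and 2.35.

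The muscles were also compared within label codes, on log2 CPM (depth-normalized counts with a prior count of 2). In code T4, with 2 soleus libraries and 1 of EDL, 10 of 10 genes were higher in soleus, with a median difference of 2.23. In code T6, with 1 soleus and 2 EDL libraries, the count was again 10 of 10 with a median of 2.11. The order of soleus over EDL was the same in both codes that contain the pair, for genes chosen on these same libraries. It rested on 1 EDL library in T4 and 1 soleus library in T6, and the genes are not independent of each other. The share of all genes going the same way was not counted, here or for the same-numbered libraries below. Soleus was above psoas for 10 of 10 genes in T4 (median 0.95) and in T6 (median 1.51). Psoas was above EDL for 9 of 10 in T4 (median 1.35), 10 of 10 in T5 (median 1.05) and 9 of 10 in T6 (median 0.55).

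The same-numbered EDL and psoas libraries differed among themselves in this respect. Psoas exceeded EDL in 9, 9, 10 and 9 of the 10 genes in replicates 1, 2, 3 and 5, with median log2 differences of 1.55, 1.35, 1.05 and 1.85. Replicate 4 went the other way, with only Pck1 higher in psoas and a median of -0.63. EDL replicate 4 was the EDL library with the highest values of Adipoq, Cfd, Retn, Plin1, Fabp4 and Pparg. With the replicate number as a block in the fit of EDL and psoas, Pck1 was called, and 1267 of all genes were called. The fit of the same libraries without the block called 557 genes and 0 of the 10, and the fit of all 13 libraries called 841. Without EDL replicate 4, Cfd was called higher in psoas.

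The 10 genes did not vary as a single unit inside a muscle. After each gene was centred on its muscle mean, Adipoq correlated across the 13 libraries with Retn at r = 0.94 (Spearman's rho 0.96), with Cfd at 0.93 (0.82), with Plin1 at 0.77 (0.77) and with Pparg at 0.74 (0.84). Pck1, Cyp2e1 and Cidec also correlated among themselves, with r of 0.77 between Cidec and Pck1, 0.74 between Cidec and Cyp2e1 and 0.55 between Pck1 and Cyp2e1. Between these sets the values ranged from -0.47 for Plin1 and Cyp2e1 to 0.53 for Cfd and Cidec, with -0.01 for Adipoq and Cyp2e1 and 0.27 for Adipoq and Pck1, so the sets were not sharply divided. Lep and Cyp2e1 were the most opposed pair (r = -0.88, rho -0.80). These correlations are descriptions over libraries that share label codes and may in part share animals.

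**Figure D3:**
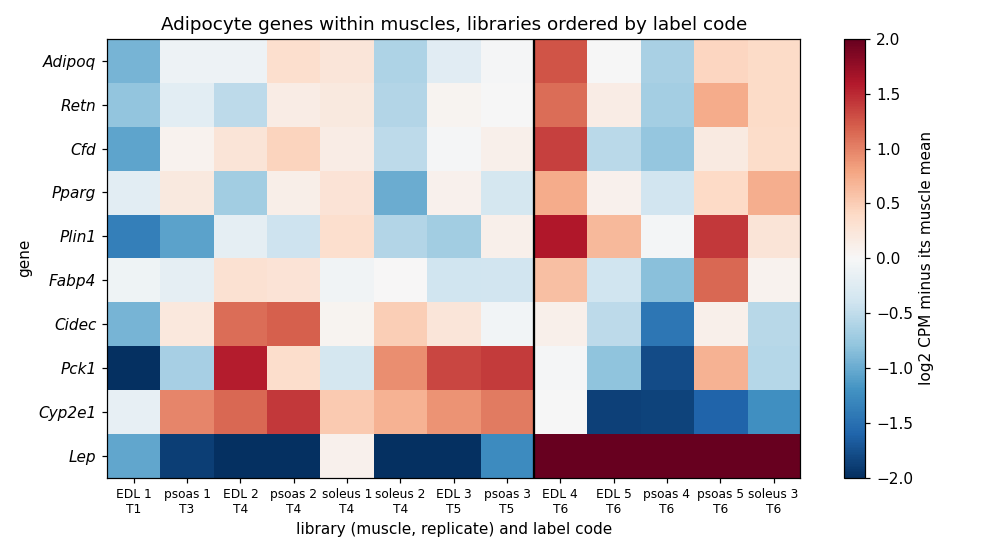
Log2 CPM of each gene minus its mean in the muscle, for the 13 libraries ordered by label code, with the 5 T6 libraries right of the line. The color scale ends at -2 and 2, and Lep exceeds it in both directions while Cyp2e1 is at or below its muscle means in the T6 libraries.

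Lep separated the libraries by label code and not by muscle, a split that was examined after its values had been seen. The 5 libraries coded T6 had 69.5 to 390.3 normalized counts of Lep (median 115), and the other 8 had 0.534 to 39.7 (median 2.07). No library of the other codes reached the T6 range, as was true in this direction for 1.32% of all genes. Lep was the only one of the 10 genes without overlap between T6 and the other codes. Cyp2e1 had 408 to 3812 in T6 and 1347 to 14289 elsewhere, so the ranges overlapped, although within each muscle a T6 library was the lowest. Of the 165 list genes tested, 4 were lower in every T6 library than in any other and 0 were higher. Of all genes, 1.58% were lower, so the count was near the share of all genes. The 4 genes are given for their values alone. Agt, the angiotensinogen gene that fat also expresses, had 21.6 to 49.01 normalized counts in T6 and 108 to 761 elsewhere. Cebpd, an early transcription factor of fat cell formation, had 217 to 330.01 against 406 to 1422, Irs2, an adaptor of the insulin receptor, 45.7 to 151 against 189 to 542, and Sirt1, a deacetylase that restrains PPARγ, 263 to 359.8 against 410.1 to 548. What the code stands for is not known, and its part in the Lep values was not tested.

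**Figure D4:**
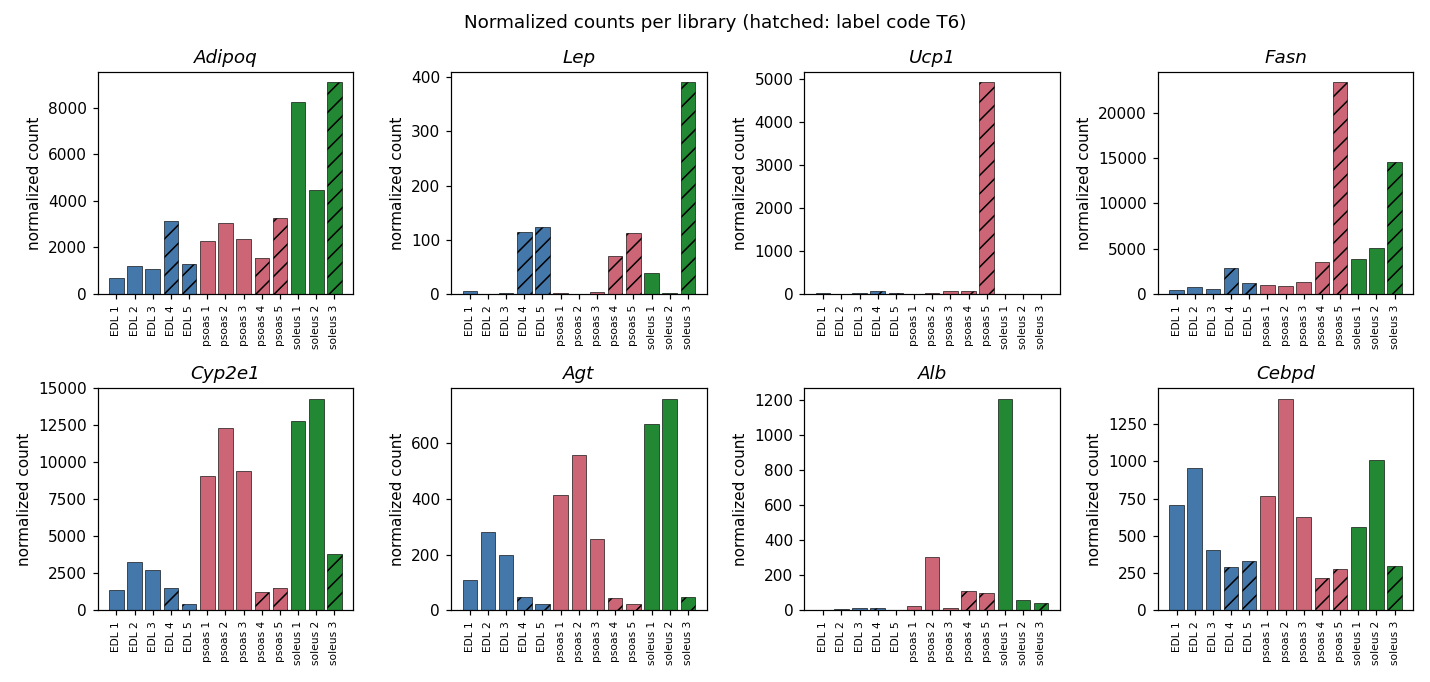
Normalized counts of 8 genes in each mdm library, colored by muscle and hatched where the label code is T6, with linear axes that start at 0. Lep is high and Agt and Cebpd are low in the hatched libraries, Ucp1 stands out in psoas replicate 5 and Alb in soleus replicate 1.

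Psoas replicate 5 also had 962 normalized counts of Cidea, a droplet protein of brown fat, and 249 of Otop1, where the other psoas libraries had at most 384 and 18.2. Of the other brown fat markers, Cox8b, Cox7a1, Elovl3 and Zic1 also had their highest psoas value there, while Prdm16 had its lowest (29.0). Dio2 (298), Ppargc1a (337) and Tmem26 (4.14) lay within the range of the other psoas libraries. Fasn, the fatty acid synthase gene, reached 23354 in psoas replicate 5 and 14601 in soleus replicate 3. Among the 10 genes, Adipoq, Retn, Plin1, Fabp4, Pparg and Lep had their highest psoas value in this library. Without it and soleus replicate 1, the median log2 fold change of the 10 genes relative to EDL was 0.72 in psoas and 2.20 in soleus.

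The genes most like the 10 were found with a score, the mean of their log2 CPM after each was scaled to a mean of 0 and an SD of 1 over the 13 libraries. The score averaged -0.73 ± 0.47 in EDL, 0.08 ± 0.39 in psoas and 1.08 ± 0.26 in soleus (SD, n = 5, 5 and 3). Of all other genes tested, Adig, which codes for the small fat cell protein adipogenin, was closest, with a Pearson r of 0.99 and a Spearman rho of 0.98 over 13 libraries. Apoc1 (an apolipoprotein, r = 0.97), Mgst1 (a glutathione transferase, 0.97), Chst1 (a sulfotransferase, 0.96), Arxes2 (0.95), Acvr1c (the activin receptor ALK7, 0.95), Lipe (hormone-sensitive lipase, 0.95), Fam213a (0.95), Acp5 (an acid phosphatase, 0.95) and Csad (an enzyme of taurine synthesis, 0.94) followed. Their rho lay between 0.90 and 0.98. Without EDL replicate 1 and soleus replicate 3, the libraries farthest from the median of the score, r remained between 0.90 and 0.98 over 11 libraries. When centred within muscle, r was 0.96 for Adig and 0.76 to 0.92 for the other 9. The most opposite genes were Sec61a2 (r = -0.91), Myh13, a myosin heavy chain (-0.90), and the uncharacterized Gm26740 (-0.90), and within muscles these fell to -0.63, -0.52 and -0.42.

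Other genes were taken from 16 lists, some of fat cell pathways and some of markers of other cell types, of which 165 genes were tested. In soleus against EDL, 6 were called higher and 2 lower, in psoas against EDL 12 and 6 (with EDL and psoas fitted alone, 14 in all, and 28 with the replicate block), and in soleus against psoas 0, with 44 at an unadjusted p under 0.05 and 6 called by DESeq2. For all 17069 genes tested, 2163 had such a p in soleus against psoas and DESeq2 called 171. The calls include markers of other cells. In psoas against EDL, 5 mesothelial markers and 1 endothelial marker were called higher and 3 fibre genes lower. In soleus against EDL, 1 mesothelial and 1 endothelial marker were called higher and 1 fibre gene lower. Among 9 further fat cell identity genes, 2 rose in soleus relative to EDL, and the list's median log2 fold change was 1.71 there, 0.85 in soleus against psoas and 0.98 in psoas against EDL. Adig rose by 2.50 ± 0.43 on the log2 scale (edgeR adjusted p = 0.00699), from 128 normalized counts on average in EDL to 716 in soleus. Lipe, the lipase that cleaves diacylglycerol, rose by 1.99 ± 0.34 (edgeR adjusted p = 0.00707), from 468 to 1848. Cebpa, the partner of PPARγ in mature fat cells, had 2.22 ± 0.51 with an edgeR adjusted p of 0.0275, and did not pass. Lpl, which frees fatty acids from lipoproteins, had 1.71 ± 0.40 (edgeR adjusted p = 0.0279) and did not pass. The calls of Adig and Lipe each held in 11 of 22 alternative fits. The number of list genes called in soleus against EDL, 8 with all libraries, was 2, 1 and 2 without soleus replicates 1, 2 and 3 and 4, 3, 2 and 4 without EDL replicates 1, 2, 3 and 5.

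Of 16 genes of the lipid droplet and lipolysis, Bscl2 (seipin, needed for droplet formation) rose in soleus by 1.40 ± 0.21 (edgeR adjusted p = 0.00355) beside Lipe, and the list's median was 0.66. In psoas against EDL, Cidea rose by 2.50 ± 0.41 (edgeR adjusted p = 0.00206) and Fitm1, a droplet protein of muscle, fell by 1.54 (SE 0.24, adjusted p = 0.00188), with a list median of 0.09. Cidea was higher in all 5 psoas libraries than in any EDL library, the lowest having 113 normalized counts against at most 89.3. Of 20 synthesis genes, Dgat1, which makes triglyceride, rose in soleus by 1.34 ± 0.24 (edgeR adjusted p = 0.00728) and Scd2, a desaturase, rose in psoas by 1.71 ± 0.34 (edgeR adjusted p = 0.00519). The medians of that list were 1.08 and 0.85 in these comparisons. The call of Bscl2 held in 17 of 22 alternative fits, that of Dgat1 in 10 of 22 and that of Scd2 in 14 of 23. Of 10 uptake genes, Lrp1 rose in psoas by 1.47 ± 0.27 (edgeR adjusted p = 0.00375), and the medians were 0.71 in soleus and 0.16 in psoas against EDL.

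Among 18 transcription factors and cofactors of fat cell formation, only Klf5 passed, higher in psoas than in EDL by 1.98 ± 0.44 (edgeR adjusted p = 0.0092), and the medians were 0.25 in psoas and 0.30 in soleus against EDL. Of 10 genes that restrain fat cell formation, Dlk1 (preadipocyte factor 1) rose in psoas by 3.84 ± 0.55 (edgeR adjusted p = 0.00122), from 2.71 to 17.9 normalized counts in EDL to 68.7 to 138 in psoas. The call of Dlk1 held in 22 of 23 alternative fits, that of Klf5 in 8 of 23. In soleus Dlk1 had 2.14 to 17.2 normalized counts. Of 12 other secreted proteins edgeR called 0 in each comparison, with 4, 3 and 3 at an unadjusted p under 0.05 in psoas against EDL, soleus against EDL and soleus against psoas and 0, 2 and 0 called by DESeq2. Of all 17069 genes tested, 5679, 2584 and 2163 had such a p in that order, and DESeq2 called 1586, 633 and 171. Among the secreted proteins, Serpina12 (vaspin) came nearest in soleus against EDL, with 2.66 ± 0.51 and an edgeR adjusted p of 0.0114. Receptors and partners of the hormones, 7 genes, gave 0 calls with edgeR, with 2, 1 and 1 at an unadjusted p under 0.05 and 1, 0 and 0 called by DESeq2, and the adiponectin receptor Adipor1 had -0.93 ± 0.22 in psoas (edgeR adjusted p = 0.0116). Of 13 hormone receptor and glucose uptake genes, Slc2a4 (the transporter GLUT4, which muscle fibres also make) fell in psoas by 1.57 (SE 0.29, edgeR adjusted p = 0.0036), and the median in soleus against EDL was 1.01.

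Some markers of other cells moved as well, and their part in the values of the 10 genes was not tested. Their counts at an unadjusted p under 0.05 and by DESeq2 stand beside those of all genes given above. Of 12 markers of fibro-adipogenic progenitors edgeR called 0 in any comparison, with 5, 2 and 0 at an unadjusted p under 0.05 and 1, 1 and 0 called by DESeq2, and their summed normalized counts were 31628 to 35883 in EDL, 25669 to 34953 in psoas and 21049.8 to 27899.7 in soleus. Of 10 endothelial markers Vwf rose in psoas by 1.42 ± 0.23 (edgeR adjusted p = 0.00196) and in soleus by 1.62 ± 0.25 (edgeR adjusted p = 0.00445), and the sum was 2672 to 6154 in EDL, 3098 to 4744 in psoas and 5167 to 6019 in soleus. The endothelial list as a whole had a median log2 fold change of 0.04 in psoas and 0.48 in soleus against EDL, with 5 and 9 of the 10 above 0. Macrophage markers, 10 genes with 0 edgeR calls (1, 0 and 1 at an unadjusted p under 0.05 and 1, 0 and 0 with DESeq2), summed to 5419 to 18604 in EDL, 4823 to 20141 in psoas and 6251 to 11403 in soleus. Of 6 mesothelial markers 5 rose in psoas, led by Lrrn4 (4.30 ± 0.49, edgeR adjusted p = 0.000654), with sums of 41.8 to 121 in EDL, 259 to 1123 in psoas and 48.6 to 167 in soleus, and Bnc1 was at 0 in all EDL libraries. Of 8 hepatocyte markers 5 were in the deposited counts, and their sum was 4.06 to 18.5 in EDL, 29.3 to 375 in psoas and 41.3 to 1503 in soleus, with Fgb at 0 in all EDL libraries. Of the 4 tested, edgeR called 0 in any comparison, with 4, 4 and 1 at an unadjusted p under 0.05 and 2, 2 and 0 called by DESeq2. Their median log2 fold change was 3.63 in psoas against EDL, 5.45 in soleus against EDL and 1.90 in soleus against psoas. Brown fat markers, 11 genes, summed to 7169 to 12495 in EDL, 2083 to 12262 in psoas and 5018 to 7369 in soleus. In EDL that sum lay mostly in Cox8b and Cox7a1 (means of 5046 and 3369), while Ucp1 had 5.10 to 79.5 there. The sum therefore does not rank the muscles by brown fat. Of that list, Cidea was called higher in psoas, as given above, and Zic1, a transcription factor, fell by 3.67 (SE 0.48, edgeR adjusted p = 0.000959) in psoas and by 3.55 (SE 0.59, edgeR adjusted p = 0.00609) in soleus. Of 8 fibre genes, Tnnt3, the troponin T of fast fibres, fell by 3.16 in soleus (SE 0.36, edgeR adjusted p = 0.000515) and Tnnt3, Ckm and Myl1 fell in psoas. The psoas calls of Tnnt3 and Ckm held in 22 and 20 of 23 alternative fits, that of Myl1 in 6. Those of Vwf, Zic1, Lrrn4 and Bnc1 held in 22, 23, 23 and 13. In soleus against EDL, the calls of Tnnt3, Vwf and Zic1 held in 22, 16 and 14 of 22 alternative fits, and that of Lrrn4 in 4.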

How the data were processed

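Total RNA of whole mdm muscles was made into stranded total RNA libraries and sequenced as paired-end reads. Per the labels and the study's methods, the authors trimmed libraries of low base quality with Trimmomatic 0.32, aligned reads to GRCm38.p4 with TopHat2 2.1.1, counted whole reads per gene with GenomicAlignments and deposited these counts after a filter on low values. The strand setting of the counting is not given in the sources used here. They also deposited a normalized signal, the count divided by a DESeq2 size factor of each library.

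Symbols and coordinates were taken from GENCODE release M21 (GRCm38), and 91 of 17924 genes had no symbol. Testing was limited to the 17069 genes whose normalized count reached 10 in 3 or more libraries. All 13 libraries entered a single edgeR 4.0.16 quasi-likelihood fit (R 4.3.3, TMM, muscle as the factor), and a gene was called where the p, adjusted by Benjamini-Hochberg, was below 0.01 and the log2 fold change beyond 1 in either direction. DESeq2 1.42.0 was an alternative. The code was tested on simulated data. Tables and figures were made with Python, pandas and matplotlib. The study's methods describe replicates isolated from several mice, but the labels do not tie libraries to animals. None of the 23 pairs of libraries of the same muscle was a duplicate (smallest chi-square per degree of freedom 56.5). Deviations of same-numbered EDL and psoas libraries from their muscle means correlated at 0.29 to 0.41. The highest value belonged to the libraries numbered 1, whose mice were 38 (EDL) and 29 (psoas) days old and so were different animals. The other same-numbered EDL and psoas libraries share a label code. Differently numbered libraries were not compared in this way, so the correlations do not show that the numbers mark pairs. An alternative fit treated the numbers as pairs, the libraries numbered 1 included.

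The 10 genes and the 16 lists were chosen with earlier results of these data known. Besides the 10 genes, the text names of each list the called genes (at most the 5 with the lowest p) or the gene with the lowest p, and the 10 genes most like and 3 most unlike the score. Ucp1, Otop1, Fasn, Alb and the genes split by code T6 were named after their values were seen. A further list gene that this rule names is not reported here. Counting error was not compared with the spread between libraries. It matters for genes with few counts, such as Lep, with 1 raw count each in EDL replicates 2 and 3, and Otop1, with 0 in EDL replicate 3.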

Additional observations from a re-analysis of the deposited data

Results flagged for a closer look

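In EDL and psoas, the groups with enough libraries for the purpose, 67 sets of 5 values were examined. A highest or lowest library whose gap to the next exceeded Dixon's 95% critical value was found in 9. The nominal 5% of sets is no measure for this count. The sets include genes named after their values were seen and genes that vary together. Adipoq had 3154 normalized counts in EDL replicate 4, and 689 to 1286 in the other EDL libraries. Adig, the gene most like the 10, had 278 in the same library, and 62.6 to 110.4 in the others. Plin1 had 2304 in psoas replicate 5, and 409 to 917 in the other psoas libraries. In that library Ucp1 had 4911 normalized counts against 6.52 to 73.3, and Otop1 had 249 against 5.87 to 18.2. Scd2 had 3936 in psoas replicate 1 (1106 to 1840.2 in the others) and Lrp1 had 12380.3 in psoas replicate 2 (6751 to 8135). Dlk1 had 17.9 in EDL replicate 2 (2.71 to 5.96), and Upk3b had 0.426 in EDL replicate 1, where the others were at 0.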

How the results depend on the processing

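All 670 alternative estimates for single adipocyte genes moved by less than the pooled SD between libraries of a muscle, as did all 67 alternative medians. Without single libraries the medians ran from 0.72 to 1.27 in psoas against EDL, 2.1 to 2.32 in soleus against EDL and 1.17 to 1.61 in soleus against psoas. The sign of Lep was not stable, with -1.17 to 2.72 in soleus against EDL, and that of Pck1 in soleus against psoas ran from -0.62 to 0.43.

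Numbers of calls moved more. In psoas against EDL, 841 genes were called, 1586 with DESeq2, 557 with the 2 muscles alone, 1267 with the replicate block on those same 2 muscles and 317 to 802 without single libraries. In soleus against EDL, 167 became 633 with DESeq2, 86 with the label code as a term and 19 to 182 without single libraries, and in soleus against psoas 13 became 171 with DESeq2, 6 with the label code, 8 with the 2 muscles alone and 3 to 21 without single libraries. List genes called went from 18 to 29 with DESeq2, 28 with the replicate block (14 with the same 2 muscles and no block) and 10 to 19 without single libraries in psoas against EDL, from 8 to 27 with DESeq2, 2 with the label code and 1 to 11 without single libraries in soleus against EDL, and from 0 to 6 with DESeq2 in soleus against psoas. Of the 10 adipocyte genes, the 4 calls in soleus against EDL became 7 with DESeq2, 0 with the label code or with the 2 muscles alone and 0 to 4 without single libraries. The 0 calls in psoas against EDL became 1 with DESeq2, the label code or the replicate block, and 0 to 1 without single libraries.

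Settings added after seeing the data changed counts as follows. Without psoas replicate 5 and soleus replicate 1, 436, 16 and 2 genes were called in psoas against EDL, soleus against EDL and soleus against psoas, with 1 list gene and 0 of the 10 in soleus against EDL. Without codes T1 and T3, 343 and 7 were called in psoas against EDL and soleus against psoas, with 10 list genes in the former, and 5 list genes and 0 of the 10 in soleus against EDL. Without code T6, 183, 63 and 0 were called, with 4 and 5 list genes in the first 2 comparisons. Of the 10 genes most like the score, 4 remained with centring within muscle, 3 with centring within label code and 7 without either farthest library. The cause of these changes was not tested, and the settings that left libraries out also had fewer libraries. With the pairing of EDL and psoas, no comparison of soleus could be made, and the block changed no call of the 10 genes but that of Pck1.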
